A study of Rattus norvegicus with 24 samples.

Results

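The genes described here encode the cargo of dense-core secretory vesicles and the enzymes that cut that cargo into peptides: Vgf, the granins Scg2, Chga and Chgb, the convertases Pcsk1 and Pcsk2, and the carboxypeptidase Cpe. The members were every probe set that the array platform's annotation names with 1 of these symbols. This gave 6 probe sets of 8799 on the array, for 5 of the 7 genes, out of 4737 genes that the annotation names singly. Chga and Pcsk1 were not analysed here, because the annotation used here pairs no probe set with those symbols. The set was chosen by the signal of Vgf, which was known to be lower after 10 halothane exposures, after 10 isoflurane exposures and over all exposed groups, so the values of Vgf are given as a description and with no test. The other genes were added for their role.

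The arrays measured total RNA from whole rat brain, 1 sample per array, on 24 arrays. In the group of 10 halothane exposures (3 arrays), animals had 2 daily exposures of 90 min to 0.8% halothane with 3 h of recovery between them, over 5 days. The group of 5 halothane exposures (3 arrays) had the same schedule over 2.5 days. The groups of 10 and of 5 isoflurane exposures (3 arrays each) had 1.0% isoflurane on the same schedules. The 12 controls had 3 min of halothane and were then perfused with ice-cold saline. The labels describe no sham exposure for the controls, give no strain, sex or age, and do not say how long after the last exposure the tissue was taken. Nothing in them says that replicates are different animals, and a p-value here reflects only the variation from sample to sample, part of which may be technical. The arrays' number limits the precision: with 3 exposed arrays against 12 controls, the 95% interval around a log2 fold change reached 0.41 to each side in the median probe set.

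Neurons and endocrine cells pack peptide precursors into dense-core vesicles and release them on stimulation. Granins are acidic proteins that make up much of the vesicle content and help precursors to be sorted and stored. Inside the vesicle, the prohormone convertases cut precursors after pairs of basic residues, and carboxypeptidase E trims the basic residues that remain. Vgf is a secreted precursor of several neuropeptides whose transcript is induced by neurotrophins and by neuronal activity.

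The promoters of the members are shown because Vgf and Scg2, a pair of vesicle precursors, share an 8-letter element there, while their log2 fold changes had opposite signs after 10 halothane exposures. The sequences are from RefSeq on the rat assembly GRCr8, read 5′ to 3′ on the gene's strand, and capitals mark the match. All 5 genes had an entry in the promoter table. Vgf lies on the minus strand, and the window printed, chr12:25277021-25277220, holds the 200 bases before its start. Scg2 also lies on the minus strand, with its 200 bases at chr9:88256867-88257066. For Pcsk2 and Cpe, both on the plus strand, 60 bases around the first 5 letters of the element are shown, at chr3:151333848-151333907 and chr16:29796507-29796566.
Vgf: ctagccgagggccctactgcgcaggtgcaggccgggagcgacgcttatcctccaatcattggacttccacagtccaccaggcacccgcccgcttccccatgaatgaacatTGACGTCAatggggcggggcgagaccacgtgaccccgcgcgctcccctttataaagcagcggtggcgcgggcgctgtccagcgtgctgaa
Scg2: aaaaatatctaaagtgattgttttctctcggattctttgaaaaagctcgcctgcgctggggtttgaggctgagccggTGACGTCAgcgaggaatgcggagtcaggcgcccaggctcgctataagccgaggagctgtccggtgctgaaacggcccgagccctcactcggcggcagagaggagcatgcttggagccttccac
Pcsk2: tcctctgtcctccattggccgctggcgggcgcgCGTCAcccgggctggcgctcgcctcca
Cpe: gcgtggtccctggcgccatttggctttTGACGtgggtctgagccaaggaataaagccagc

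The element TGACGTCA, the cAMP response element that CREB proteins bind, was searched on both strands in the 250 bases before the start. It stood at positions -90 to -83 in Vgf and at -123 to -116 in Scg2, counted from the base before the start as -1. It was found in 1.59% of all 33469 promoters of the table (531). The shorter TGACG, which any full element also holds, stood at -57 to -53 on the opposite strand in Pcsk2, where the printed strand reads CGTCA, and at -173 to -169 in Cpe, and was found in 18.2% of all promoters. Vgf alone of the 5 genes also held CACGTG, an E-box found in 5.59% of promoters, at -65 to -60, and TATAAA, found in 12.9%, at -41 to -36. In Chgb none of these letters stood in this window. A match is a description of the letters, not a bound site.

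Of the members, Vgf had the largest difference from the controls. In the group of 10 halothane exposures its probe set M74223_at had intensities of 260.3, 286.6 and 260.1, against controls whose lowest, median and highest values were 354.8, 441.35 and 541.2. All 3 arrays lay below every control. Of all 7389 probe sets tested, 0.528% were lower in this way. The means were 269 ± 15.2 after 10 halothane exposures (SD, n = 3) and 439 ± 61.9 in controls (SD, n = 12). The log2 fold change was -0.70 (SE 0.14), which is 0.617 of the control level.

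The arrays of 10 isoflurane exposures had Vgf intensities of 339.6, 341.8 and 284.4, again all below every control. The share of all probe sets lower in this way was 0.433%. Its mean was 322 ± 32.5 (SD, n = 3) and its log2 fold change against the same controls -0.44 (SE 0.14). The comparisons against control share the control arrays, so their values stand side by side and are no independent repeats.

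The groups with 5 exposures overlapped the controls. After 5 halothane exposures Vgf had 457.3, 405.8 and 360.0, all within the control range, with a log2 fold change of -0.10 (SE 0.14). After 5 isoflurane exposures it had 357.7, 423.2 and 253.4, a log2 fold change of -0.37 (SE 0.14). Only the third of these arrays lay below the controls, and without it the log2 fold change was -0.16.

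In order of the mean, the groups stood at 269 after 10 halothane, 322 after 10 isoflurane, 345 after 5 isoflurane and 408 after 5 halothane exposures, and at 439 in controls. The arrays of neighbours in this order overlapped in every case. The log2 differences were -0.26 (SE 0.17) for 10 halothane against 10 isoflurane exposures, -0.07 (SE 0.17) for 10 against 5 isoflurane exposures, 0.27 (SE 0.17) for 5 halothane against 5 isoflurane exposures, and -0.10 for 5 halothane exposures against control.

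The number of exposures separated the halothane arrays in Vgf. The values of 260.3, 286.6 and 260.1 after 10 halothane exposures all lay below the 457.3, 405.8 and 360.0 after 5, a log2 difference of -0.59 (SE 0.17). With 3 arrays against 3 such a gap is common: 5.32% of all probe sets were lower in this way. In isoflurane the arrays of 10 and of 5 exposures overlapped. The log2 difference between 10 and 5 exposures was thus -0.59 in halothane and -0.07 in isoflurane, and halothane minus isoflurane gave -0.52 (SE 0.24). Without isoflurane 5 replicate 3 this last value was -0.32. All of these Vgf values come from the signal that chose the set and are given without a test.

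**Figure D1:**
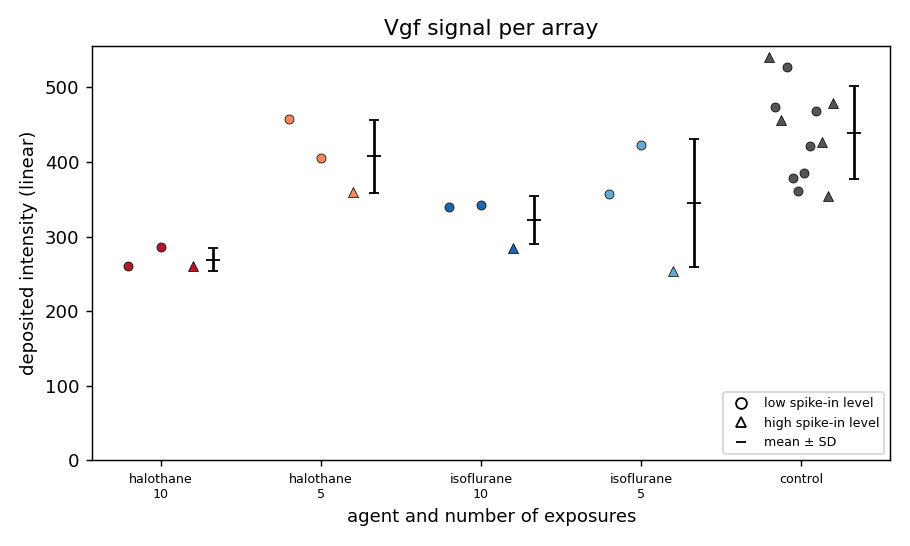
Vgf intensity as deposited (linear scale, y axis) on each of the 24 arrays, by group (x axis), with the mean and SD of each group as a bar. Circles are arrays with a low and triangles arrays with a high level of bacterial spike-in probe sets. All arrays of 10 halothane exposures (260.1 to 286.6) and 10 isoflurane exposures (284.4 to 341.8) lie below the lowest control at 354.8.

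Bacterial spike-in probe sets split the arrays into 9 with a high and 15 with a low level, with 5 controls and replicate 3 of each exposed group among the high ones. On low spike-in arrays alone Vgf stood at -0.65 after 10 halothane exposures, 0.01 after 5, -0.33 after 10 isoflurane exposures and -0.13 after 5. With this level as a block these were -0.71, -0.11, -0.45 and -0.38, so the difference after 5 isoflurane exposures was the one that moved most when high spike-in arrays were left out.

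Markers of other cell types were looked at beside Vgf. All 5 of 5 measured blood markers were lower than in controls after 10 halothane and after 10 isoflurane exposures, with medians of -0.49 and -0.40 on the log2 scale. After 5 halothane exposures, where Vgf stood at -0.10, 5 of 5 were also lower (median -0.20), and after 5 isoflurane exposures, where Vgf stood at -0.37, 3 of 5 were (median -0.06). Of all probe sets 56.2%, 50.5%, 51.8% and 48.4% were lower in these 4 groups, in the order given. S100a9, 1 of the 5 markers, lay under the floor of 16.5 set for the tests on every array of both halothane groups. Its control median was 17.25. The summed intensity of the blood markers was 449 to 476 after 10 halothane exposures, 404 to 678 after 10 isoflurane exposures and 562 to 1018 in controls, and the part of blood in the Vgf values was not tested. All 9 of 9 oligodendrocyte markers were lower after 10 halothane exposures (median -0.24), with sums of 8470 to 11600 against 9019 to 13100 in controls. In the group of 10 isoflurane exposures 5 of 9 were lower (median -0.0043). Of 7 choroid plexus markers 2 were lower after 10 halothane exposures (median 0.37) and 3 after 10 isoflurane exposures (median 0.29), with sums of 4749 to 7254 and of 4898 to 6089 against 3525 to 5390 in controls. Lists for astrocytes, microglia and endothelium had medians between -0.10 and 0.08 in these groups, and 0 genes of any marker list named here passed limma's test in either group. The ratio of 3′ to 5′ GAPDH signal, a measure of RNA integrity, was 0.889 to 0.923 after 10 halothane exposures, 0.953 to 1.02 after 10 isoflurane exposures and 0.877 to 1.079 in controls.

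Neuron markers were present, as the brain label requires: Snap25, a protein of the synaptic release machinery, had 1854 to 3517 after 10 halothane exposures and 1943 to 3693 in controls. Of 12 neuron markers 7 were lower after 10 halothane exposures (median -0.07), with sums of 9197 to 13090 against 10210 to 13090 in controls. In the group of 10 isoflurane exposures 5 of 12 were lower (median 0.06). In bulk tissue, fewer cells of a type and less RNA per cell cannot be told apart.

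The pituitary gland, which makes granins and convertases and sits against the brain, was looked at through 10 markers. Their summed intensity was 594 to 688 after 10 halothane exposures, 591 to 1288 after 10 isoflurane exposures and 621 to 1062 in controls, and 8 of 10 were lower after 10 halothane exposures (median -0.21) and 5 of 10 after 10 isoflurane exposures (median 0.03). Gh1, growth hormone, had 15.7 to 38.6 after 10 halothane exposures, 22.2 to 178.9 after 10 isoflurane exposures and 21.1 to 105.9 in controls, with medians of 36.7, 34.1 and 43.55 over a floor of 16.5 set for the tests. Prl, prolactin, had 19.0 to 26.9 after 10 halothane exposures, 4.2 to 48.0 after 10 isoflurane exposures and 6.3 to 44.7 in controls. The part of pituitary tissue in the members' values was not tested.

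Among the other members none passed the test. In limma, with p-values adjusted over all 7389 probe sets, 0 of 6 member probe sets were called after 10 halothane exposures, where 0.0406% of all probe sets (3) were called. That count became 1, Vgf itself, in 5 of 13 other settings and in 5 of 24 fits with 1 array left out (isoflurane 5 replicate 2 or 3, or control 5, 6 or 11), and since Vgf chose the set nothing is read from it. The count was 0 of 6 also after 5 halothane exposures (0.0135%, 1 probe set), and after 10 isoflurane exposures, after 5 isoflurane exposures and over the mean of the 4 exposed groups (0% in each). At an unadjusted p under 0.05, limma gave, of the 5 probe sets other than Vgf, 0 after 10 halothane (7.52% of all probe sets), 0 after 5 halothane (3.53%), 2 after 10 isoflurane (9.05%), 0 after 5 isoflurane (2.14%) and 1 over the mean of the exposed groups (8.44%). These were Chgb and Pcsk2 M83746_at after 10 isoflurane exposures, and Chgb over the mean.

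The median log2 fold change of the 6 probe sets was 0.05 after 10 halothane exposures, where the median of all probe sets was -0.03. It was -0.14 after 10 isoflurane exposures, where that of all probe sets was -0.0027. Both medians count Vgf, whose signal chose the set, and Pcsk2 by 2 probe sets, so nothing is read from them. The other probe sets stood after 10 isoflurane exposures at 0.0058 (Scg2), 0.25 (Chgb), -0.28 and -0.41 (Pcsk2) and 0.03 (Cpe). Of the 6 probe sets 2 were lower after 10 halothane exposures, Vgf and the dimmer Pcsk2 one (56.2% of all probe sets). After 10 isoflurane exposures 3 were, Vgf and both of Pcsk2 (50.5% of all).

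**Figure D2:**
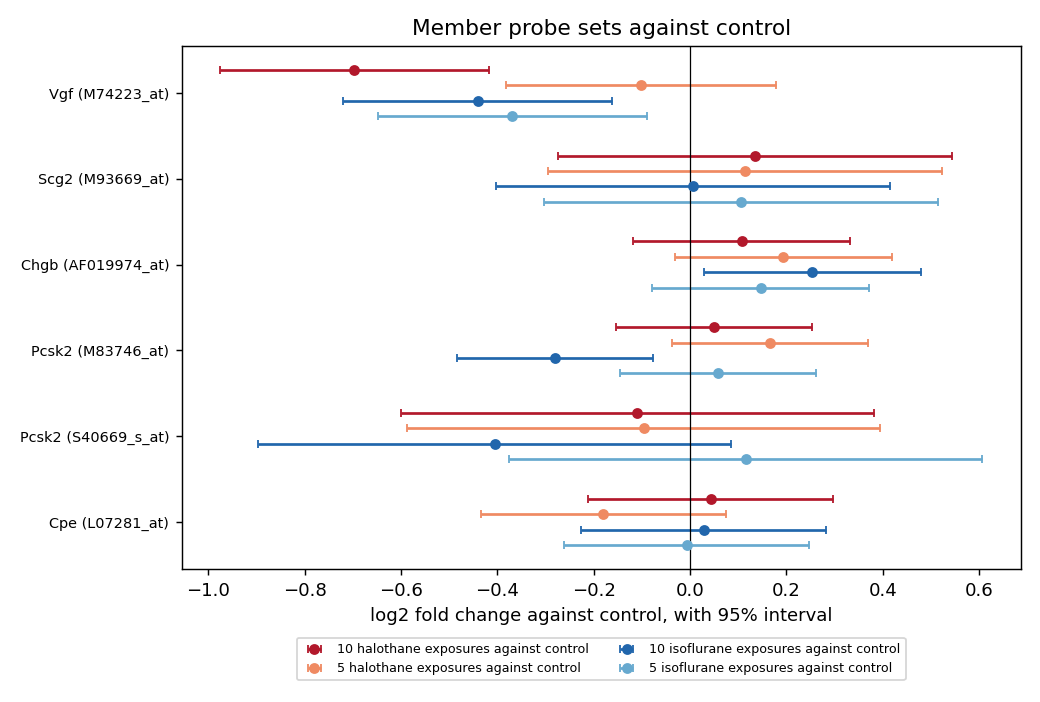
Log2 fold change against control (x axis, with 95% interval) of each member probe set (y axis) in the 4 exposed groups, from the limma fit over 24 arrays. Vgf lies at -0.70 after 10 halothane exposures, while the 4 Chgb points all lie above 0, between 0.11 and 0.25.

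Scg2, secretogranin II, the precursor of secretoneurin, differed little between groups and much within them. Its probe set M93669_at had 323.0, 368.1 and 279.0 after 10 halothane exposures and 431.7, 373.2 and 197.5 after 5. It had 249.1, 351.8 and 289.8 after 10 isoflurane exposures and 247.1, 405.5 and 312.0 after 5, against a lowest, median and highest control of 192.6, 304.0 and 374.2. Every group overlapped the controls.

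The log2 fold change of Scg2 was 0.13 after 10 halothane exposures (95% interval -0.27 to 0.54, limma adjusted p = 0.9), the opposite sign to Vgf. It was 0.11 after 5 halothane exposures, 0.0058 after 10 isoflurane exposures and 0.11 after 5. One array set the spread after 5 halothane exposures: without the array at 197.5 the value there was 0.46 in place of 0.11 (adjusted p = 0.984). Scg2 and Vgf, the 2 members with the full element in their promoters, thus stood at 0.13 and -0.70 after 10 halothane exposures, and the interval of Scg2 is wide.

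Chgb, chromogranin B, a main acidic protein of the vesicle core, had a higher mean than the controls in all 4 exposed groups. Its probe set AF019974_at had 865.5, 940.8 and 823.9 after 10 halothane exposures and 1041.0, 902.8 and 854.3 after 5. It had 1098.7, 837.4 and 989.3 after 10 isoflurane exposures and 885.1, 985.3 and 834.7 after 5, against a lowest, median and highest control of 641.5, 821.75 and 965.7. All 12 exposed arrays lay above the control median, the lowest of them at 823.9 against 821.75. Most of them lay inside the control range. How many of all probe sets lay above the control median in this way was not counted.

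The largest of the 4 Chgb differences was after 10 isoflurane exposures, at 0.25 on the log2 scale (SE 0.11, 95% interval 0.03 to 0.48, limma adjusted p = 0.493). It was 0.11 after 10 halothane, 0.19 after 5 halothane and 0.15 after 5 isoflurane exposures. Over the mean of the exposed groups it was 0.18 (95% interval 0.03 to 0.32, limma adjusted p = 0.455), which did not pass the test. The value after 10 isoflurane exposures was 0.16 without isoflurane 10 replicate 1, 0.15 on low spike-in arrays and 0.41 with the replicate number as a block. That block sets the exposed arrays against controls 1 to 3 only. These had 641.5, 709.2 and 845.0, against a median of 821.75 over all controls. Chgb also moved with the spike-in level: the 4 high spike-in exposed arrays had a median of 844.5 and the 8 low ones 921.8, while the 5 high controls had 750.4 and the 7 low ones 880.3. On low spike-in arrays the difference over the mean of the exposed groups was 0.12, with the replicate number as a block it was 0.34, and the part of the spike-in level in it was otherwise not tested.

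Pcsk2, the convertase PC2, which makes many of the final cuts in neuropeptide precursors, was measured by 2 probe sets. The brighter, M83746_at, had 341.1, 386.1 and 318.1 after 10 halothane exposures and 361.7, 376.9 and 391.8 after 5. It had 307.3, 232.2 and 296.0 after 10 isoflurane exposures and 396.8, 353.4 and 304.5 after 5, against a lowest, median and highest control of 286.3, 339.3 and 369.3. All 3 arrays of 10 isoflurane exposures lay below the control median, 1 of them below every control.

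This probe set of Pcsk2 differed from control by -0.28 on the log2 scale after 10 isoflurane exposures (SE 0.10, 95% interval -0.48 to -0.08), with a limma adjusted p of 0.382, and by -0.15 without isoflurane 10 replicate 2, the array at 232.2. In the halothane group with 10 exposures it was at 0.05 (95% interval -0.15 to 0.25, limma adjusted p = 0.924). All 3 arrays of 10 halothane exposures lay above all 3 of 10 isoflurane exposures, as did 2.58% of all probe sets, and the difference was 0.33 (95% interval 0.07 to 0.59, limma adjusted p = 1), or 0.20 without that isoflurane array. The means of Vgf stood in the reverse order, at -0.26 (SE 0.17) for 10 halothane against 10 isoflurane exposures, but its arrays overlapped. Between 10 and 5 isoflurane exposures the probe set differed by -0.34 (95% interval -0.60 to -0.08, limma adjusted p = 1), with overlapping arrays, and by -0.21 without the same array.

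The dimmer Pcsk2 probe set, S40669_s_at, had 122.5, 121.7 and 54.9 after 10 halothane exposures and 73.0, 129.9 and 88.6 after 5. It had 78.6, 114.8 and 49.0 after 10 isoflurane exposures and 123.8, 116.3 and 90.7 after 5, against a lowest, median and highest control of 75.0, 100.9 and 134.3. Its values were spread more widely than those of the brighter probe set, with a within-group SD of 0.38 against 0.14 on the log2 scale.

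S40669_s_at was at -0.41 after 10 isoflurane exposures (95% interval -0.90 to 0.09, limma adjusted p = 0.634), the same sign as the brighter probe set. That value was -0.70 without isoflurane 10 replicate 2, -0.09 without replicate 3 and -0.18 on low spike-in arrays. The probe sets of Pcsk2 had opposite signs after 10 halothane exposures, and the dimmer one was at -0.11 over all arrays and 0.28 without its array at 54.9. It was lower on high spike-in arrays, with a median of 71.75 on the 4 high and 119 on the 8 low exposed arrays, and of 88.8 on the 5 high and 106.2 on the 7 low controls.

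Cpe, carboxypeptidase E, lay close to the controls in 3 of the 4 exposed groups. Its probe set L07281_at had 3209.6, 3052.9 and 3002.5 after 10 halothane exposures and 2951.6, 1997.3 and 3138.7 after 5. It had 3942.1, 2777.6 and 2605.9 after 10 isoflurane exposures and 3043.1, 2889.1 and 3015.4 after 5, against a lowest, median and highest control of 2325.7, 2981.4 and 3330.1. Single arrays stood out, 1 low after 5 halothane exposures and 1 high after 10 isoflurane exposures, and every group overlapped the controls.

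The log2 fold change of Cpe was 0.04 after 10 halothane exposures (95% interval -0.21 to 0.30, limma adjusted p = 0.947) and 0.03 after 10 isoflurane exposures (95% interval -0.23 to 0.28, limma adjusted p = 0.972). It was -0.18 after 5 halothane exposures, and 0.02 without the array at 1997.3. It was -0.007 after 5 isoflurane exposures.

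**Figure D3:**
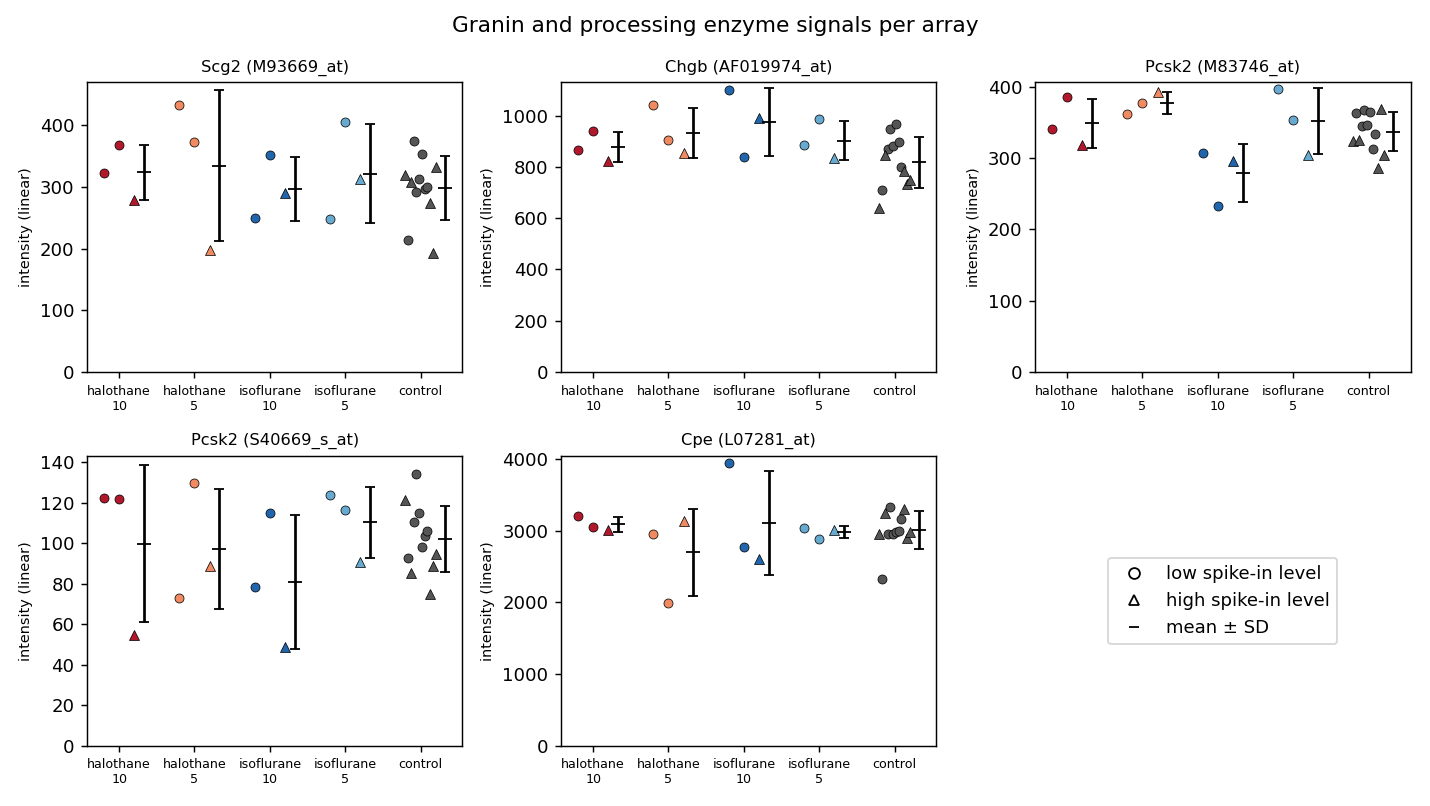
Intensity as deposited (linear scale, y axes) of the 5 other member probe sets on each of the 24 arrays, by group (x axes), with the mean and SD of each group as a bar. Circles are arrays with a low and triangles arrays with a high spike-in level. The arrays of 10 isoflurane exposures lie low in Pcsk2 M83746_at (232.2 to 307.3), and single arrays stand apart in Cpe (1997.3 after 5 halothane and 3942.1 after 10 isoflurane exposures).

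In the comparisons between exposed groups limma again called 0 of 6 member probe sets, Vgf counted among them as a description. Of all probe sets, 0% were called for 10 halothane against 10 isoflurane exposures, for 10 against 5 isoflurane exposures, for 10 against 5 exposures over both agents and for the interaction of agent and number. The share was 0.0135% (1 probe set) for 5 halothane against 5 isoflurane exposures and for 10 against 5 halothane exposures. At an unadjusted p under 0.05 the 5 probe sets other than Vgf gave 1 for 10 halothane against 10 isoflurane (3.11% of all), 0 for 5 halothane against 5 isoflurane (2.98%), 0 for 10 against 5 halothane (3.76%), 1 for 10 against 5 isoflurane (3.00%), 1 over both agents (4.55%) and 0 for the interaction (2.00%). The probe set was Pcsk2 M83746_at each time.

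The 12 controls show how the members vary together without repeated exposure. Over the controls, the log2 signal of Vgf had a Pearson's r of 0.361 with Scg2 (Spearman's rho 0.448), -0.495 with Chgb (rho -0.49), -0.395 with Pcsk2 M83746_at (rho -0.531) and -0.187 with Cpe (rho -0.217). None of these 4 relations passed a two-sided permutation test. The Pearson p-values were 0.256, 0.104, 0.202 and 0.598 in the same order, or 0.341, 0.341, 0.341 and 0.598 after Benjamini-Hochberg adjustment over the 4, and the Spearman p-values were 0.148, 0.111, 0.0794 and 0.496, or 0.197, 0.197, 0.197 and 0.496 adjusted.

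Without the 2 controls farthest from the median of Vgf, r was 0.018 for Scg2, so that relation rested on those arrays. It was -0.597 for Chgb, -0.25 for Pcsk2 and -0.273 for Cpe. Within the 7 low spike-in controls r was -0.058 for Scg2, -0.59 for Chgb, -0.22 for Pcsk2 and -0.361 for Cpe, and the 5 high spike-in controls were too few for a value. The relation of Vgf with Chgb was negative in each of these sets of controls, and 12 arrays did not separate it from 0.

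**Figure D4:**
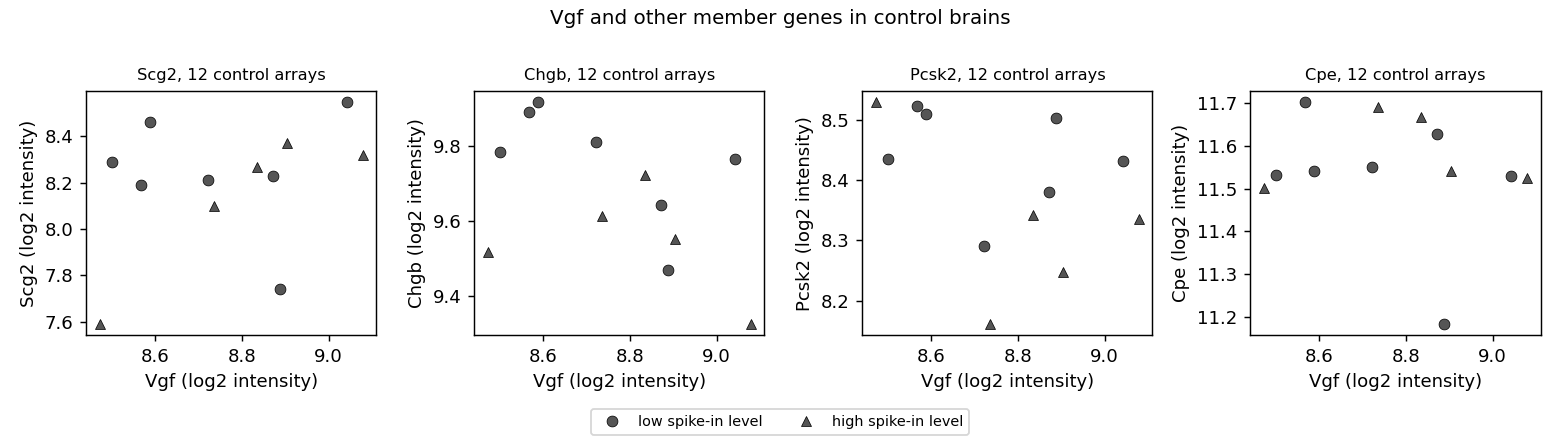
Log2 intensity of Scg2, Chgb, Pcsk2 (M83746_at) and Cpe (y axes) against that of Vgf (x axes) on the 12 control arrays; circles have a low and triangles a high spike-in level. Pearson's r is 0.361, -0.495, -0.395 and -0.187 from left to right, and no relation passed the permutation test.

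No gene of the wider vesicle machinery passed the test. Of 33 further genes of dense-core vesicles and peptide processing, 23 were measured; 0 rose and 0 fell in limma after 10 halothane or 10 isoflurane exposures, and 1 had an unadjusted p under 0.05 in each. After 10 halothane exposures 12 of 23 were lower, with a median of -0.002 (all probe sets -0.03), and after 10 isoflurane exposures 13 were, with a median of -0.06 (all probe sets -0.0027). The lowest p-values after 10 halothane exposures were those of Ptprn, a membrane protein of the vesicle, at -0.32 (limma adjusted p = 0.618), the vesicle synaptotagmin Syt4 at 0.31 and the convertase Pcsk6 at 0.42. For 10 isoflurane exposures they were those of the convertase Furin at 0.29 (limma adjusted p = 0.507), the vesicle priming factor Cadps at 0.23 and the carboxypeptidase Cpd at 0.24.

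Genes in a list of neuropeptide precursors, which also holds growth factors such as Igf1 and Igf2, were lower more often than higher. None passed the test. Of 36 genes 30 were measured; 0 rose and 0 fell in limma after 10 halothane or 10 isoflurane exposures, and 3 had an unadjusted p under 0.05 in each. After 10 halothane exposures 22 of 30 were lower (median -0.13), against 56.2% of all probe sets, and after 10 isoflurane exposures 23 were (median -0.13), against 50.5%. The lowest p-values after 10 halothane exposures were those of Npy, neuropeptide Y, at -0.38 (limma adjusted p = 0.304), the growth factor Igf1 at -1.30 (adjusted p = 0.482) and Sst, somatostatin, at -0.32 (adjusted p = 0.648).

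After 10 isoflurane exposures the lowest p-values were those of Gal, galanin, at 0.92 (limma adjusted p = 0.0526), Pdyn, prodynorphin, at -0.37 (adjusted p = 0.291) and Ghrh, growth hormone releasing hormone, at -0.25 (adjusted p = 0.507). The same genes stood at -0.0036, -0.18 and -0.14 after 10 halothane exposures. Among these genes Gal alone was above control after 10 isoflurane exposures. The summed pituitary markers of that group were 591 to 1288, against 621 to 1062 in controls. The part of pituitary tissue in the Gal value was not tested.

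A list of genes tied to neuronal activity and neurotrophins, the signals known to induce Vgf, was looked at next. It holds activity-induced genes and also neurotrophins, their receptors and constitutive factors such as Creb1, and no gene of it passed the test. Of 38 genes 33 were measured, and 0 rose and 0 fell in limma after 10 halothane or 10 isoflurane exposures. At an unadjusted p under 0.05, limma gave 8 of 33 and 5 of 33, against 7.52% and 9.05% of all probe sets. The 8 after 10 halothane exposures went both ways. Junb, Egr1, Egr4, Arc and Inhba were lower than in controls, and Jun, Nptx1 and Rheb were higher. In the halothane group 25 of 33 were lower after 10 exposures, with a median of -0.19 (all probe sets 56.2% lower, median -0.03), and after 10 isoflurane exposures 23 were, with a median of -0.13 (all probe sets 50.5% lower, median -0.0027). After 5 exposures 18 were lower with either agent, with medians of -0.0069 for halothane and -0.01 for isoflurane, close to those of all probe sets (-0.0077 and 0.0064).

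The lowest p-values of this list after 10 halothane exposures were those of the immediate early transcription factors Junb, at -0.62 (limma adjusted p = 0.224), Jun, at 0.53 (adjusted p = 0.398), and Egr1, at -0.47 (adjusted p = 0.422). For 10 isoflurane exposures they were those of the neurotrophin receptor Ngfr, at -0.48 (limma adjusted p = 0.302), Egr1, at -0.51 (adjusted p = 0.319), and Junb, at -0.50 (adjusted p = 0.365). Junb and Egr1 were thus among the 3 with both agents, below control in each, and Jun had the opposite sign after halothane.

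**Figure D5:**
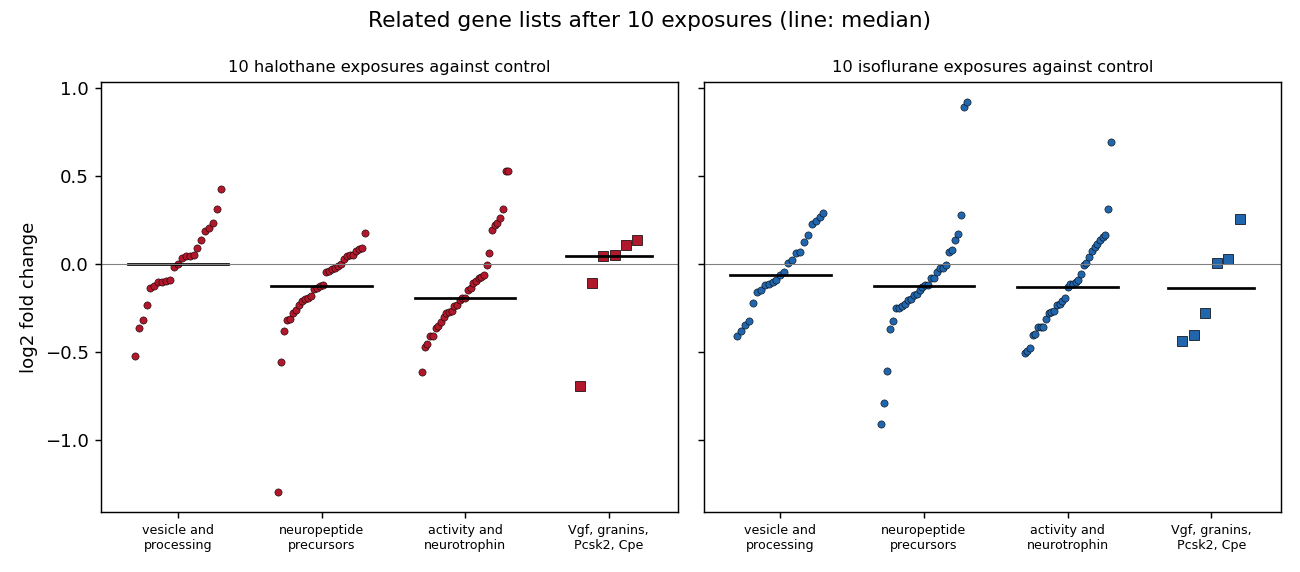
Log2 fold change against control (y axis) of each measured gene in 3 lists and of the 6 member probe sets (x axis), after 10 halothane (left) and 10 isoflurane exposures (right). Each point is a gene or a member probe set and the line is the median. The medians of the vesicle and processing genes lie near 0 (-0.002 and -0.06) and those of the activity and neurotrophin genes below it (-0.19 and -0.13).

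Other genes with the element shared by Vgf and Scg2 were lower about as often as genes without it. Of 87 tested genes with TGACGTCA in the 250 bases before their start, 57.5% were lower after 10 halothane exposures (median -0.05), against 55.7% of 3344 tested genes without it (median -0.03). For 10 isoflurane exposures the shares were 49.4% and 49.6% (medians 0.005 and 0.003). Of the 33 activity and neurotrophin genes 22 had a promoter entry, and 3 of them (Crem, Dusp1 and Jund) held the element. Arc, Atf3, Fos, Jun and Nr4a3 were among those without an entry, so whether they hold it was not seen. Genes with only the shorter TGACG, or with the element outside these 250 bases, count here as genes without it. This comparison was chosen after the values were seen, and both groups are given without a test. The part of the element in the Vgf values was not tested.

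The genes whose log2 signal over the 24 arrays was most like that of Vgf, among 6012 probe sets with 1 symbol, were Nptx2, neuronal pentraxin 2 (Pearson's r 0.749), the axon guidance gene Slit1 (0.731), the chemokine gene Cx3cl1 (0.717), Ndrg4 (0.705) and the potassium channel subunit gene Kcnf1 (0.689). These correlations describe arrays that share the exposure groups and the scaling, and no test goes with them. The genes were picked for likeness to Vgf over arrays that include the exposed groups. Values below control after 10 exposures therefore follow in part from that choice, and the values below are a description only. After 10 halothane exposures these genes stood at -0.30 for Nptx2, -0.36 for Slit1, -0.49 for Cx3cl1, -0.39 for Ndrg4 and -0.79 for Kcnf1. After 10 isoflurane exposures they stood at -0.36 for Nptx2, -0.50 for Slit1, -0.42 for Cx3cl1, -0.17 for Ndrg4 and -0.72 for Kcnf1. None of the groups with 10 exposures had a mean above control in these genes, while after 5 halothane exposures Nptx2 (200.9 against 199.2 in controls) and Ndrg4 (4252 against 4235) did. Mean intensity was lowest after 10 halothane exposures for Cx3cl1 and Ndrg4, as for Vgf, and lowest after 10 isoflurane exposures for Nptx2, Slit1 and Kcnf1.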

How the data were processed

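Total RNA from 24 whole rat brain samples was hybridised to single-colour oligonucleotide arrays, 1 array per sample, per the labels. The values are the authors' deposited intensities, linear and with 1 value for each probe set on each array, and the sources used here do not name the software that made them. The 2% trimmed mean of each array lay between 150.15 and 150.18, so the deposited scaling was kept. Array medians were 53.5 to 64.9. The ratio of 3′ to 5′ GAPDH probe sets was 0.876 to 1.157 over all arrays.

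Intensities were raised to a floor of 16.5 (the 25th percentile of the table) and taken to log2. Without the 59 control probe sets, those that exceeded the floor on 3 or more arrays were tested (7389 of 8799, all 6 members among them). One limma 3.58.1 model in R 4.3.3 with 5 group means over all 24 arrays gave 11 comparisons, with an intensity trend and Benjamini-Hochberg adjustment over all probe sets tested, called at an adjusted p under 0.05, two-sided. The fit was tested on simulated data. Correlations over controls used permutation tests with 100000 resamples in SciPy 1.17.1. Of the probe sets tested, 6018 had 1 symbol in the platform annotation, 267 several and 1104 none.

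The members and lists were chosen with earlier results of these data known. All member probe sets are named, with up to 3 genes of lowest p per list (1 probe set per gene, the brightest) and the 5 genes most like Vgf. Alternatives were another normalization, floor, filter, trend setting, array weights, fewer groups or controls, the spike-in level, the replicate number as a block and each array left out. Same-numbered samples deviated together, with every correlation over 0.1, for 10 halothane and 10 isoflurane exposures (0.222 to 0.468), 10 and 5 isoflurane exposures (0.149 to 0.46), 10 halothane and 5 isoflurane exposures (0.293 to 0.52) and 10 isoflurane and 5 halothane exposures (0.111 to 0.258). The lowest fell under 0.1 for 10 and 5 halothane exposures (0.096 to 0.378) and for 5 halothane and 5 isoflurane exposures (0.087 to 0.356). For exposed groups and controls they ranged from -0.184 to 0.312. In every pair of exposed groups the highest same-numbered value was that of replicate 3, the array with a high spike-in level. Some different-numbered samples also deviated together, such as 10 halothane replicate 1 and 5 halothane replicate 2 (0.215). The parts of the number and of the spike-in level in these correlations were not tested.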

Additional observations from a re-analysis of the deposited data

How the results depend on the processing

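The count of 0 called members after 10 halothane exposures became 1, Vgf, with quantile normalization, with the floor at the 40th percentile, with array weights and with a block for the spike-in level, and ranged from 0 to 1 with 1 array left out. The count was 1 without isoflurane 5 replicate 2 or 3 and without control 5, 6 or 11. With the replicate number as a block, which sets the exposed arrays against controls 1 to 3 only, it was 1 after 10 halothane exposures and 1 over the mean of the 4 exposed groups; elsewhere the block changed no count of members. The Vgf log2 fold change after 10 halothane exposures ranged from -0.86 to -0.65 over 13 other settings and from -0.74 to -0.67 with 1 array left out. Since Vgf chose the set, nothing is read from the fits in which it was called. No other member was called in any fit (0 calls). Of 2442 recomputed member values 16 moved by at least the within-group SD, 12 of them with 1 array left out and 4 on low spike-in arrays. Values against control changed sign in 1 of 185 cases for Vgf, whose low signal chose the set, and in 44 of 925 for the other members. Of the 44, 13 were those of Pcsk2 M83746_at over the mean of the exposed groups, where its value was -0.0015. The fits share most arrays, so nothing is read from these counts set side by side. The number of probe sets called of all tested after 10 halothane exposures was 3, and ranged from 1 to 33 over the settings (33 with array weights, 15 with the replicate block). Over the mean of the exposed groups it was 0 and reached 27 with the replicate block. The cause of these shifts was not tested. The 4 relations over the controls did not pass the test with another floor, with quantile normalization, without controls 10 to 12 or with 1 control left out, and kept their sign there; within the low spike-in controls the relation of Vgf with Scg2 changed sign (-0.058). Groups of 3 arrays limit every interval here.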
